A study of Mus musculus with 4 samples.

Results

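Long non-coding RNAs (lncRNAs) of mouse brown adipose tissue were followed across isolated mitochondria and a second preparation of the same tissue. The tissue came from wild-type (WT) animals, all 4 libraries had that genotype and tissue in common, and there were 2 libraries of mitochondria and 2 of the second preparation. Neither the labels nor the methods gave the strain, age or sex for these libraries, or said whether the replicates came from separate animals, so the spread between them may be technical. The sources disagree on the second preparation. Its treatment label describes tissue without mitochondria, whereas its titles and the study's own description call it total tissue. It is called the non-mitochondrial fraction here after the label, and every ratio below is to whole tissue if the titles are right. The deposited values are read counts divided by a size factor for each library, called normalised counts below.

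The members were the genes with an lncRNA biotype in the Ensembl annotation whose mean normalised count over the 4 libraries was at least 10, with Gm20644 and 4932416K20Rik left out. This gave 62 genes, out of 1062 lncRNA genes and 17259 genes of all kinds in the table. They were 26 lincRNAs, 21 processed transcripts, 8 antisense, 4 bidirectional-promoter, 2 sense-intronic and 1 sense-overlapping RNA. They were chosen by their level in these same libraries and then ranked by mitochondria over the non-mitochondrial fraction, so the level and that ratio are given as a description. At the threshold, Snhg14 lay just inside with a mean of 10.25, 5 more genes (Gm17690, Ppnr, Gm17066, Gm10503 and A930005H10Rik) lay exactly on a mean of 10, and 4933406C10Rik and Ifi30, both at 9.75, lay just outside. Of the 62, 44 had a non-mitochondrial mean of 10 or more, and the other 18 were carried over the threshold by their value in mitochondria.

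LncRNAs are transcripts with no long open reading frame. Many are retained in the nucleus, where they form part of nuclear bodies or act on the chromatin of their own locus, and others are exported and bind proteins or microRNAs in the cytoplasm. A mitochondrial preparation can carry RNA of nuclei, cytosol and other cells beside that of the organelle. Brown fat is rich in mitochondria and burns fuel for heat through the uncoupling protein Ucp1.

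Depth set the limits of every value in mitochondria. Genes of the mitochondrial genome made up 95.25% and 95.47% of the first and second mitochondria library, and 51.06% and 59.28% of the others. In mitochondria the gene-assigned reads numbered 26288871 and 24910434, and 1 read stood for 8.322 and 6.901 normalised counts, so a value of 8 or 7 was a single read. The non-mitochondrial totals were 1590096 and 1905303 normalised counts, and their values did not give whole reads back. Only 8 of the 62 lncRNAs had 10 or more reads over both mitochondria libraries and only 4 had 20 or more. The median lncRNA had 3 reads in mitochondria library 1 and 0 in library 2.

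Bc1 and Gm44386 are shown first because, of the 8 lncRNAs with 10 or more mitochondria reads, they alone were higher in both mitochondria libraries than in both others. Bc1 is a short RNA polymerase III transcript best known from neurons, where it represses translation in dendrites. The Bc1 gene lies at chr7:144914470-144914637 on the plus strand (GRCm38) and is a single exon of 168 bases. The sequence is from the GENCODE M21 transcripts, and the capitals mark its A-rich stretch, bases 77 to 136, in which 49 of 60 bases are A.

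Bc1: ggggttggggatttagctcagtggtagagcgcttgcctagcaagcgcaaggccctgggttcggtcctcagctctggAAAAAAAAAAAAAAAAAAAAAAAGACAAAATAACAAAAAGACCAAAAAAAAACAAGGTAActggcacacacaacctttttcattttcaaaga

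Gm44386 is the lncRNA on which the study centred, under the name mitolnc. It has 2 exons on the minus strand of chromosome 6, exon 1 at chr6:86516023-86516273 with 251 bases and exon 2 at chr6:86513891-86514068 with 178 bases (GRCm38). Its exons are printed in transcript order from GENCODE M21, and the capitals mark bases that lie in a run of 25 bases found, on either strand, in the transcripts of another gene. No base of exon 1 was in such a run. In exon 2, 111 of the 178 bases were, with matches in 268 of the 55341 annotated genes.

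Gm44386 exon 1: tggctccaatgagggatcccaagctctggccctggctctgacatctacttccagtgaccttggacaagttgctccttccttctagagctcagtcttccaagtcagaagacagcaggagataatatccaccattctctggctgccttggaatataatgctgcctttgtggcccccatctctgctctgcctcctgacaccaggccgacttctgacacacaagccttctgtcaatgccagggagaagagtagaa
Gm44386 exon 2: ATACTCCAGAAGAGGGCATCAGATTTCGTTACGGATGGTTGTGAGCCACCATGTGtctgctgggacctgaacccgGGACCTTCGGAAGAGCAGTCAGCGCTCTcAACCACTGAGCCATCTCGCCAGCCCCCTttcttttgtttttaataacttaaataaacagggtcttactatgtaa

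In Bc1, 108 bases, from the first base to base 108, lay in runs of 25 bases that 348 other genes also held, so reads from that end can match several places in the genome, and reads that did so were not counted.

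Bc1 was at 42 and 179 normalised counts in mitochondria (5 and 26 reads) and at 27 and 29 elsewhere. Each mitochondria value exceeded each non-mitochondrial one, but library 2 was far above library 1. The log2 fold change was 1.60 ± 0.89 (SE, n = 2 and 2) on the log2(value + 1) scale that is used for every fold change below. Gm44386 was at 67 and 41 in mitochondria (8 and 6 reads) and at 24 and 20 in the non-mitochondrial fraction. The groups did not overlap, the log2 fold change was 1.22 ± 0.50 (SE, n = 2 and 2), and limma did not call the gene (Benjamini-Hochberg adjusted p = 0.31). These directions hold for the deposited size factors and turn with the scaling. With CPM over all genes and with CPM over nuclear genes, the log2 fold changes were -4.96 and -1.84 for Bc1 and -5.28 and -2.20 for Gm44386, while the median of all tested genes moved to -7.15 and -4.41. With TMM, median ratios or CPM over nuclear protein-coding genes they were between 2.20 and 2.31 for Bc1 and between 1.82 and 1.93 for Gm44386. Per kilobase of exon, which allows genes of different length to be set beside each other, Bc1 stood first of the 62 in mitochondria at 250 and 1066 normalised counts per kb, Malat1 second at 784.2 and 115.6, and Gm44386 the next at 156.2 and 95.57. The order of these genes changed between the mitochondria libraries, where Malat1 was highest in library 1 and Bc1 in library 2. In the non-mitochondrial fraction Malat1 stood first at 2078 and 2023 per kb, Bc1 second at 160.7 and 172.6, and Gm44386 came behind Gm10076 and Neat1 at 55.94 and 46.62, and there the gaps between neighbours in the order were wider than the spread between libraries.

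**Figure D1:**
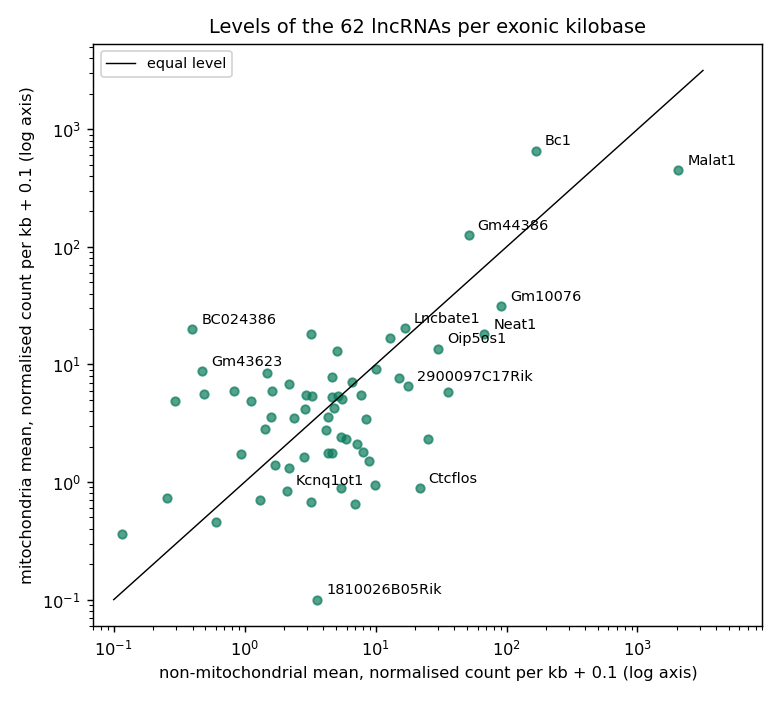
Mean normalised count per exonic kilobase of each of the 62 lncRNAs (points) in mitochondria (y axis) against the non-mitochondrial fraction (x axis), both on log axes with 0.1 added, with a line of equal level. On the deposited scaling Bc1 and Gm44386 lie above the line at high level (below it with CPM over all or over nuclear genes), Malat1 and Neat1 below it, and 1810026B05Rik had no read in either mitochondria library.

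Malat1, an abundant RNA of nuclear speckles, dominated the non-mitochondrial lncRNAs. It was at 14512 and 14128 normalised counts there and took 82.23% and 81.61% of the counts of all 62 members. In mitochondria it was at 5476 and 807, which was 658 and 117 reads and 68.97% and 48.82% of the members' counts. All values in mitochondria were below all others, and the log2 fold change was -2.77 ± 1.14 (SE, n = 2 and 2). Neat1, the scaffold RNA of paraspeckles, was at 666 and 83 in mitochondria (80 and 12 reads) against 1398 and 1410, with a log2 fold change of -2.57 ± 1.22 (SE, n = 2 and 2). Malat1 stood at 8.222 and 9.723 times Neat1 in the mitochondria libraries and at 10.38 and 10.02 times in the others, so the level of both changed from library to library while their ratio stayed within a narrow range.

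**Figure D2:**
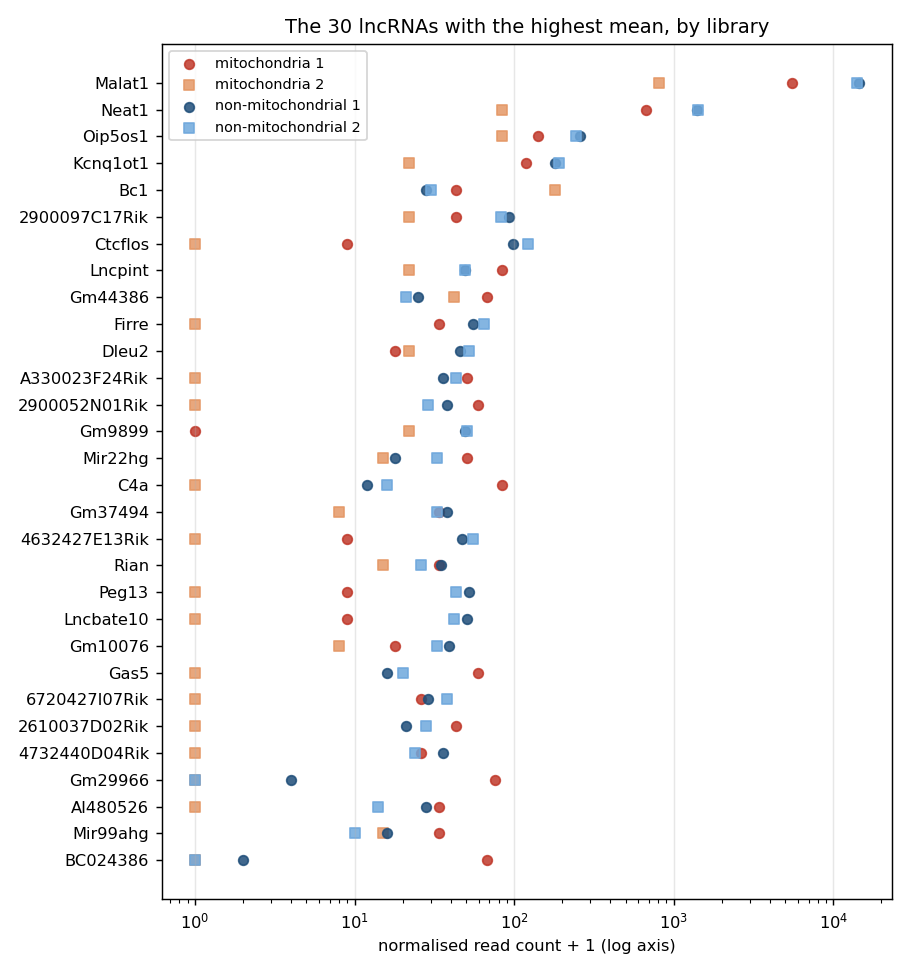
Normalised counts of the 30 lncRNAs with the highest mean in each of the 4 libraries, on a log axis with 1 added. Circles and squares are libraries 1 and 2, reds are mitochondria and blues the non-mitochondrial fraction. For the most abundant genes the blue points lie close together, with wider gaps for some lower ones such as Gm29966 (3 and 0), AI480526 (27 and 13) and Mir22hg (17 and 32), and mitochondria library 2 is at 0 (plotted at 1) for many genes that library 1 detected.

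Ranked by mitochondria over the non-mitochondrial fraction, 19 lncRNAs had a log2 fold change above 0 and 43 below it on the deposited scaling. The 18 members with a non-mitochondrial mean under 10 passed the threshold through mitochondria. Their mean there was thus the higher one by the rule itself, and nothing is read from these counts. With CPM over all genes 19 of these 19 fell below 0, and with CPM over nuclear genes 15 of them did, all but Gm43623, AC160336.1, BC024386 and Gm29966. With mitochondria library 1 alone 32 of the 62 lay above 0, beside 26.12% of all tested genes, and with library 2 alone 13 did, beside 27.24%. Members could pass the threshold through the same mitochondria library, and this count was not repeated on genes chosen otherwise. Nothing is read from the difference between these shares. The median was -1.26, beside -1.23 over all 8215 genes with a mean of at least 10, and 31 of the 62 lay above that overall median. The place of the lncRNAs relative to all genes changed with the method and with the threshold. The medians were -0.34 beside -0.81 with edgeR and -0.27 beside -0.81 with DESeq2. For the 8 members and all genes with a mean of at least 50 they were -1.69 beside -0.96. The members' median was -1.88 at a minimum mean of 20, and the 18 members let in through mitochondria are part of the -1.26. The 5 highest were Gm43623, AC160336.1, BC024386, Gm29966 and Bc1, and all but Bc1 had a non-mitochondrial mean under 10. Gm43623, which lies inside the kinase gene Cdk14 on the same strand, was at 25 and 21 in mitochondria and 2 and 0 in the other fraction, but this was 3 reads in each mitochondria library. AC160336.1 was at 42 and 7 against 2 and 1, and its single exon of 93147 bases overlaps 5 other genes, so its reads cannot be assigned with certainty. Of the mitochondria libraries, only library 1 held reads of BC024386 and Gm29966, as described below. The 5 lowest were Lncbate10, Peg13, 4632427E13Rik, 1810026B05Rik and Ctcflos. Ctcflos, antisense to the germline insulator gene Ctcfl, had 8 and 0 normalised counts in mitochondria, a single read in all, against 98 and 122, with a log2 fold change of -5.20 ± 1.29 (SE, n = 2 and 2). 1810026B05Rik, also known as Chaserr, which represses the neighbouring chromatin remodeller gene Chd2, had no read in either mitochondria library against 25 and 35, and at a floor of 3 reads per library it was at least 1.31-fold lower. Peg13, a paternally expressed RNA within Trappc9, had 8 and 0 against 51 and 42. Lncbate10 had 8 and 0 against 50 and 41. Each of these low values in mitochondria was 0 or 1 read.

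**Figure D3:**
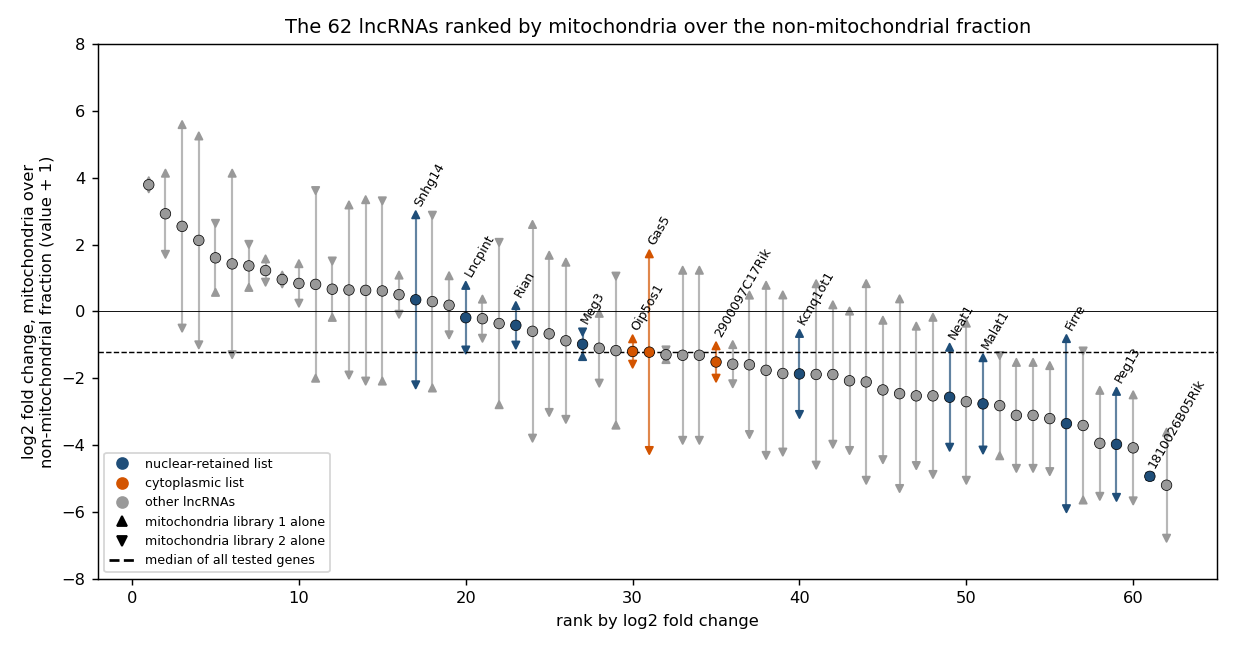
The 62 lncRNAs in order of log2 fold change (circles), with the value that mitochondria library 1 alone (upward triangles) or library 2 alone (downward triangles) would give against both non-mitochondrial libraries. Nuclear-retained RNAs are blue, cytoplasmic RNAs orange and the dashed line is the median of all tested genes, -1.23. For many genes the triangles fall on opposite sides of 0.

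By limma with Benjamini-Hochberg adjustment, 0 members were called higher in mitochondria, beside 0.803% of the 8215 genes tested, and 1 was called lower, 1810026B05Rik, beside 4.41%. Without adjustment, 1 member was higher at a p under 0.05, beside 3.2% of all tested genes, and 6 were lower, beside 14.9%. With edgeR the unadjusted counts were 5 higher, beside 5.03%, and 12 lower, beside 23.7%, and with DESeq2 they were 4 higher, beside 5.04%, and 8 lower, beside 18.3%. The count-based edgeR and DESeq2 tests also called 0 members higher, beside 2.17% and 2.35% of all tested genes, and 1 lower, Ctcflos, beside 2.5% and 3.66%. Both mitochondria libraries lay above both others for 5 members (Gm43623, AC160336.1, Bc1, Gm44386 and A530065N20Rik), beside 8.59% of all tested genes, and below both others for 21, beside 52.1%. Since this contrast ranked the members, nothing is read from these counts.

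Nuclear-retained and cytoplasmic lncRNAs were then set side by side. Of 25 RNAs listed as nuclear-retained, 10 were members, 6 were in the table under a mean of 10 and 9 were not found in it. Of 20 listed as cytoplasmic, 3 were members, 16 were under a mean of 10 and 1 was not found in the table. The nuclear-retained members had a median log2 fold change of -2.22 and the cytoplasmic members one of -1.22, beside -1.23 over all tested genes. The cytoplasmic median was the value of Gas5, the middle one of the 3 members. Gas5 itself was at 1.72 with mitochondria library 1 alone and at -4.16 with library 2 alone. The median then passed to another gene, to Oip5os1 at -0.82 with library 1 alone and to 2900097C17Rik at -1.998 with library 2 alone. The gap of -1.001 depended on the mitochondria library, at -0.12 with library 1 alone and -1.58 with library 2 alone. Without Malat1 and Neat1 it was -0.21, and by the arithmetic of a median the same value follows from leaving out any 2 of the 5 lowest nuclear-retained members, so it is not particular to that pair.

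The nuclear-retained members varied among themselves. Kcnq1ot1, the antisense RNA that silences its imprinted neighbours, was at 117 and 21 in mitochondria (14 and 3 reads) against 180 and 191, with a log2 fold change of -1.87 ± 1.02 (SE, n = 2 and 2). Firre, an X-linked RNA that helps to organise nuclear structure, was at 33 and 0 against 54 and 64. For both of these the mitochondria libraries lay below the others. Lncpint, a p53-responsive RNA, was at 83 and 21 against 48 and 48, one mitochondria library above and the other below the non-mitochondrial pair. Among the imprinted RNAs, Meg3 was at 8 and 14 against 23 and 21, and Rian, from the same imprinted domain, was at 33 and 14 against 34 and 25. Snhg14, the paternally expressed host of a large snoRNA cluster, was at 33 and 0 against 2 and 6. These last values came from 4 reads or fewer in each mitochondria library. Of the 9 imprinted lncRNAs listed, 5 were members, each of them also on the nuclear-retained list, and the 3 in the table under a mean of 10 (Airn, H19 and Mirg) had no mitochondria read. The imprinted list summed to 199 and 49 in mitochondria against 305 and 307. Tug1 carries a protein-coding biotype in the table and so was not a member.

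The cytoplasmic members were Oip5os1, 2900097C17Rik and Gas5. Oip5os1, known as Cyrano, which directs the decay of miR-7, was at 141 and 83 in mitochondria (17 and 12 reads) against 256 and 244, and its log2 fold change was -1.20 ± 0.50 (SE, n = 2 and 2). 2900097C17Rik, known as Norad, which binds Pumilio proteins, was at 42 and 21 (5 and 3 reads) against 92 and 82, with a log2 fold change of -1.51 ± 0.55 (SE, n = 2 and 2). Both were below the non-mitochondrial fraction in both mitochondria libraries, and Oip5os1 stood at 3.357, 3.952, 2.783 and 2.976 times 2900097C17Rik in mitochondria libraries 1 and 2 and non-mitochondrial libraries 1 and 2. Gas5, a snoRNA host that accumulates in growth-arrested cells, was at 58 and 0 (7 and 0 reads) against 15 and 19, so the mitochondria libraries fell on either side of the others. Its annotated exons share 746 bases with the snoRNA and microRNA genes it hosts. Of all 17 snoRNA hosts listed, Gas5 was the only member, 15 were in the table under a mean of 10, and those 15 together had 1 read in mitochondria library 1 and 0 in library 2 against 66 and 86 normalised counts in the other fraction.

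Summed over all listed genes with no filter on level, the nuclear-retained RNAs stood at 26.0 and 9.231 times the cytoplasmic RNAs in mitochondria and at 38.03 and 36.52 times in the non-mitochondrial fraction. Without Malat1 the ratios were 4.004 and 1.471 in mitochondria against 4.281 and 4.267. Without Malat1 and Neat1 they were 1.329 and 0.6731 against 1.03 and 1.048. Mitochondria library 1 was near the non-mitochondrial ratios once Malat1 was left out, and library 2 was below them on each of the 3 counts. The reads behind the last pair of mitochondria values were 40 and 10 for the nuclear-retained RNAs and 30 and 15 for the cytoplasmic ones.

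**Figure D4:**
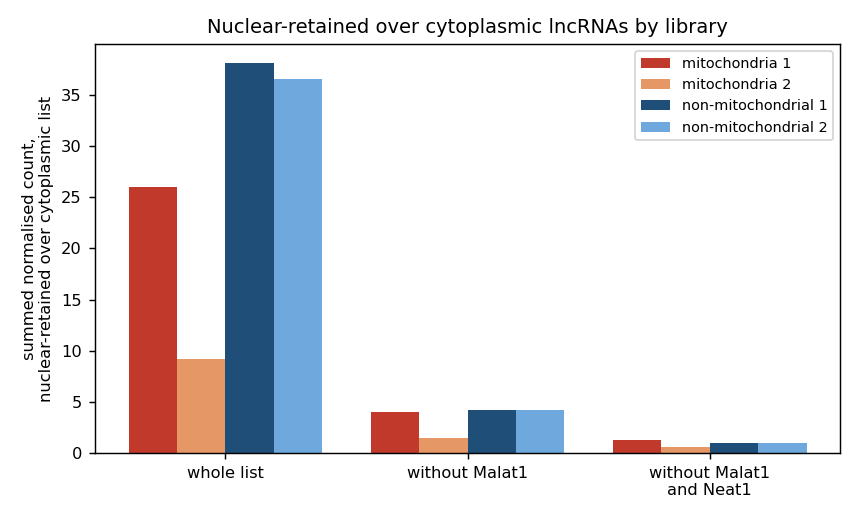
Summed normalised count of the nuclear-retained list divided by that of the cytoplasmic list in each library (bars), for the whole list, without Malat1 and without Malat1 and Neat1. The non-mitochondrial bars (blue) are level with each other in each set, and mitochondria library 2 is the lowest bar in each.

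The mitochondria libraries differed from each other in their lncRNA reads. Library 1 had 954 reads of the 62 members and library 2 had 239, a ratio of 3.99 (95% exact Clopper-Pearson interval 3.46 to 4.62), whereas all genes together gave a ratio of 1.055 and nuclear protein-coding genes one of 0.849 (0.839 to 0.859). These intervals cover counting error only and compare the libraries, not conditions. Malat1 had a ratio of 5.62 (4.61 to 6.91), Neat1 one of 6.67 (3.61 to 13.4) and Kcnq1ot1 one of 4.67 (1.30 to 25.3). Oip5os1, at 1.42 (0.638 to 3.25), and Gm44386, at 1.33 (0.406 to 4.66), could not be told from equal at this depth. Bc1 went the other way, at 0.192 (0.0577 to 0.509). Of the 1010 nuclear protein-coding genes with 20 or more reads over both mitochondria libraries, the quartiles of the ratio were 0.329 and 1.27 and 9.70% had a ratio above 5, as Malat1 and Neat1 did. The non-mitochondrial libraries differed little, with members' totals of 17647 and 17312.

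**Figure D5:**
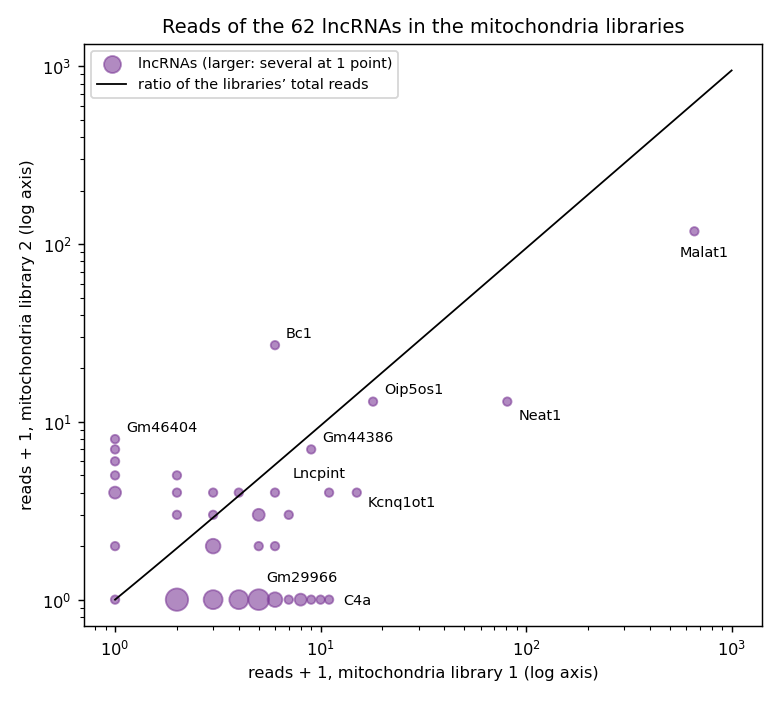
Reads of each of the 62 lncRNAs in mitochondria library 1 (x axis) and library 2 (y axis), both on log axes with 1 added, where larger points stand for several genes at the same place. The line is the ratio of the libraries' total reads, 1.055. Malat1 and Neat1 lie far below the line, Bc1 lies above it, and a row of genes along the bottom had reads in library 1 and none in library 2.

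The difference did not rest on Malat1 alone, though it was smaller without it. Without Malat1 the members gave 296 and 122 reads, a ratio of 2.43 (1.96 to 3.02). Without Malat1 and Neat1 they gave 216 and 110, a ratio of 1.96 (1.55 to 2.49). There were 384 and 220 reads over the 1058 lncRNA genes other than Malat1, Neat1, Gm20644 and 4932416K20Rik, whatever their level. This was a ratio of 1.75 (1.48 to 2.07). The ratio was 1.88 (1.46 to 2.45) for lincRNAs without Malat1 and Neat1, 1.76 (1.25 to 2.51) for processed transcripts and 1.63 (1.12 to 2.38) for antisense RNAs, while for bidirectional-promoter RNAs the interval of 0.578 to 2.47 around 1.19 included equality. The ratio was also above 1 for other classes of gene, at 1.41 (1.22 to 1.64) for small nuclear RNAs, with 448 and 317 reads, and at 2.33 (1.82 to 3.01) for loci marked as to be experimentally tested, with 217 and 93 reads. The cause of the difference between the libraries was not tested.

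The difference was also plain in the genes that were not seen at all. Of the 62 members, 8 had no read in mitochondria library 1 and 33 had none in library 2, whereas 19.85% and 20.95% of all tested genes had none. A member could pass the threshold through 1 mitochondria library. The count was therefore repeated on lncRNA genes chosen only by a non-mitochondrial mean of 10 or more, again without Gm20644 and 4932416K20Rik. Of those 69 genes, 33.3% had no read in library 1 and 68.1% had none in library 2, beside 27.4% in each library of the 8038 nuclear protein-coding genes chosen in the same way. Of the 69, 43 had more normalised counts in library 1 and 9 had more in library 2. Counts higher in mitochondria library 1 than in library 2 were found for 49 of the 62 members, beside 48% of all tested genes.

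A few members were high in mitochondria library 1 and at 0 in library 2. Gm29966, whose transcript contains the gene of the liver microRNA miR-122, was at 75 and 0 in mitochondria (9 and 0 reads) against 3 and 0 in the non-mitochondrial fraction. BC024386 was at 67 and 0 (8 and 0 reads) against 1 and 0. C4a, a complement C4 gene with a processed-transcript biotype in this annotation, was at 83 and 0 (10 and 0 reads) against 11 and 15, and its close relative C4b had 44 and 6 reads, so reads may be split between the pair. Beside these, the 8 liver marker genes, all in the table, summed to 12940 and 891 normalised counts in mitochondria (1555 and 129 reads) and to 287 and 70 in the other fraction, with Alb at 4943, 393, 97 and 3 in the same order. The part of liver RNA in these members' values was not tested. Gm46404 was the reverse, at 0 and 48 in mitochondria (0 and 7 reads) against 3 and 3.

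The summed markers of other cell types, except those of macrophages, also differed between the mitochondria libraries. Single genes could go against their set. Elovl3, a brown adipocyte marker, was at 25 and 14 in mitochondria, and Mylpf, a skeletal muscle marker, at 8 and 35. The 8 brown adipocyte markers, among them Ucp1 and the lipid carrier Fabp4, were all present, at 2830 and 7867 in mitochondria against 13488 and 11913, so they were lower in mitochondria library 1, where lncRNAs were higher. The 4 endothelial markers were at 101 and 7 against 802 and 815, the 6 skeletal muscle markers at 2705 and 794 against 253 and 519, and the 2 heart markers in the table at 208 and 648 against 2 and 1. The 4 macrophage markers were at 175 and 165 against 35 and 39 and the 5 erythroid markers at 250 and 635 against 296 and 624. The part of other cell types in the lncRNA values was not tested, and in tissue RNA a change in the number of cells of a type cannot be told apart from a change in RNA per cell.

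Lncbate1, which like Lncbate10 takes its name from brown adipose tissue and is needed for the identity of brown adipocytes, was at 33 and 0 in mitochondria (4 and 0 reads) against 13 and 14. Carmn, an RNA of smooth muscle and heart, was at 25 and 0 against 18 and 17. In both, the mitochondria libraries fell on either side of the non-mitochondrial pair.

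Several members are hosts from which microRNAs are cut, and 10 of the 62 had an annotated microRNA gene inside them, 21 such genes in all, of which 19 had a mature sequence in the RefSeq table (GRCm38.p6). The strands below were chosen to show which hosts carry microRNAs with a common seed, bases 2 to 8, the part that pairs with targets, which is in capitals. The let-7 seed was found in 6720427I07Rik (let-7a, let-7d and let-7f) and in Mir99ahg (let-7c). Mir100hg also holds a let-7 gene, Mirlet7a-2, and the RefSeq table gives the let-7a 5p strand once, under the gene in 6720427I07Rik.

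let-7a-5p: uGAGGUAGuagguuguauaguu
let-7d-5p: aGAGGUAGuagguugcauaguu
let-7f-5p: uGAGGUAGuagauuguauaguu
let-7c-5p: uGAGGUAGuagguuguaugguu

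Mir99ahg and Mir100hg, which lie on different chromosomes, each carry a microRNA of the miR-99 and miR-100 seed and a copy of miR-125b.

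miR-99a-5p: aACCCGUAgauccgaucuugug
miR-100-5p: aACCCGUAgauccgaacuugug
miR-125b-5p: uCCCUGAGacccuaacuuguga

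Within a single host, Dleu2 carries miR-15a and miR-16 with the same seed, A330023F24Rik carries miR-29b and miR-29c with the same seed, and Mir22hg carries miR-22.

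miR-15a-5p: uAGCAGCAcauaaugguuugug
miR-16-5p: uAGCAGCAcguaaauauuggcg
miR-29b-3p: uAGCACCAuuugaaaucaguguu
miR-29c-3p: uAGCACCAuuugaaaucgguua
miR-22-3p: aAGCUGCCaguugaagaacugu

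The host with the most let-7 genes, 6720427I07Rik, was at 25 and 0 in mitochondria (3 and 0 reads) against 28 and 37. Both mitochondria values were the lower ones, but the gap between 25 and 28 is smaller than the value of a single read. Mir99ahg was at 33 and 14 (4 and 2 reads) against 15 and 9, and its groups overlapped. Mir100hg was at 17 and 0 against 10 and 14. Dleu2 was the host with the steadiest values, at 17 and 21 in mitochondria (2 and 3 reads) against 45 and 51, with no overlap and a log2 fold change of -1.30 ± 0.43 (SE, n = 2 and 2). A330023F24Rik was at 50 and 0 against 35 and 42, and Mir22hg at 50 and 14 against 17 and 32, with the mitochondria libraries on either side of the others. Over the 13 microRNA hosts that had been listed by name, 4 were members (Mir22hg, Mir99ahg, Mir100hg and Dleu2), 3 were under a mean of 10 and 6 were not in the table, and their sum was 117 and 49 in mitochondria against 99 and 119. These values are for the host transcripts, as the libraries do not resolve mature microRNAs.

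The members differed in how cleanly their reads can be assigned. They lay on 19 chromosomes, had between 168 and 93147 exonic bases with a median of 4725, and 14 were annotated with a single exon. In GENCODE M21 (GRCm38), 59 had the same start and end as in the deposited table. Exonic bases were shared with at least 1 other gene in 37 members, and with a gene on the opposite strand in 28. Among those named above, Ctcflos shares 171 bases with Ctcfl on the opposite strand and 1810026B05Rik shares 2628 bases with Chd2 on its own strand. The library kit keeps the strand, but the strand setting used for counting was not given in the sources used here, so reads of such pairs may have been left out as shared or may not be told apart.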

How the data were processed

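RNA of 2 libraries of isolated mitochondria and 2 of brown adipose tissue labelled as without mitochondria was sequenced from a strand-keeping low-input kit, with fragmentation of mitochondrial RNA adjusted to its size. By the submitters' processing notes the authors trimmed reads with Trimmomatic 0.39, aligned them with STAR 2.7.10a to mm10, counted them per gene with featureCounts 2.0.2 and deposited counts divided by the DESeq2 1.30.1 size factor of each library and rounded (a signal per gene, not raw counts). Reads that matched several genes or places were left out. In mitochondria all values lay within 1 unit of a whole number of reads, which gave the reads back. The members and gene lists were chosen with earlier results of these data known. Groups were taken from the treatment labels. For the comparison of fractions, log2(value + 1) was fitted by limma 3.58.1 (R 4.3.3) over the 8215 genes with a mean of at least 10, and p-values were adjusted by the Benjamini-Hochberg method, with a threshold of 0.05. Named genes were list members, Gm44386, the 5 highest and 5 lowest fold changes, the 10 highest means and the genes next to the threshold, with exceptions named for their microRNAs, for overlap between groups or for a value in 1 library, and these exceptions were chosen after their values were seen. Alternatives used edgeR 4.0.16 and DESeq2 1.42.0, with mitochondria as reads and the other fraction as deposited values, other pseudocounts, scalings and filters, the replicate block, and libraries left out. Counts of calls without each library, and counts over lncRNA genes chosen by the non-mitochondrial fraction alone, were added after seeing the data. The limma step was run on simulated data in which both mitochondria libraries shared the same mean for each gene. The difference between the real mitochondria libraries was not simulated, so this run is no check at their spread. Replicate numbers are shared between groups, but nothing says that they pair the samples. Floors were 3 reads per library.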

Additional observations from a re-analysis of the deposited data

How the results depend on the processing

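With a pseudocount of 10 or a minimum mean of 50 there were 0 lncRNAs called lower, beside 0.0122% and 0.443% of all genes fitted. The count was 59 of 62 with CPM over all genes, beside 96.9%, 44 with CPM over nuclear genes, beside 87.2%, and 2 when all listed genes were fitted, beside 20.8%. Leaving out a library moved the number called higher between 0 and 9 and the number called lower between 0 and 36, with the lone library of a fraction assumed to vary like the other pair. Without mitochondria replicate 1 there were 3 higher and 36 lower, beside 5.68% and 41.1% of all genes, without mitochondria replicate 2 there were 9 and 18, beside 7.57% and 47%, and without either non-mitochondrial library 0 of all 8215 genes were called. The median over the 62 lncRNAs was -6.65 with CPM over all genes, and it was -2.18 without mitochondria replicate 1 and 0.09 without mitochondria replicate 2, beside -0.92 and -1.05 over all tested genes. Scaling by TMM moved the median of all genes to -0.66 and that of the members to -0.77. With CPM over all genes and over nuclear genes, the nuclear-retained median was -8.31 and -5.68 and the cytoplasmic median -7.87 and -4.70. Leaving out a library moved the nuclear-retained median between -3.57 and -0.94. The gap between the lists was -0.70 and -0.55 with pseudocounts of 0.5 and 10, -0.43 with CPM over all genes, -0.81 over nuclear protein-coding genes, -1.35 at a minimum mean of 20, -0.21 without Malat1 and Neat1 (as without any 2 of the 5 lowest nuclear-retained members), and -1.58 to -0.12 without a library, so it kept its sign. The other planned pseudocounts, scalings and filters kept these summaries within the spread between replicates. The cause of these changes was not tested.

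A replicate block left 0 lncRNAs called lower, as it left 0 of all 8215 genes called in either direction. The replicate differences of the fractions correlated at 0.1115 over 8215 genes, and the samples share only a number. Of the 62 lncRNAs, 60 moved by more than the replicate spread with CPM over all genes and 31 over nuclear genes, and of the 19 above 0, Bc1 and Gm44386 among them, 19 and 15 turned negative. Depth limits most values in mitochondria: 42 of the 62 lncRNAs had a mean there at or below 3 reads per library.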
